A study of Mus musculus with 9 samples.

Results

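Interferon-stimulated and antigen presentation genes were followed in mouse liver, as a list of 37 genes that act as antiviral effectors, sensors, transcription factors, GTPases and the machinery of MHC class I and class II. A probe set belonged to the list where the array annotation gave it exactly 1 gene and that gene was on the list. By this rule 32 of the 37 genes had 58 probe sets, and 28 genes with 48 probe sets passed the filter on dim probe sets, out of 9225 genes and 15838 probe sets tested on the whole array. Isg15, Ifi44, Oas1g, Ddx58 and Xaf1 had no such probe set, and every probe set of Oas1a, Mx1, Mx2 and Ciita lay under the filter.

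Livers came from 3 groups with 3 arrays each. Mice with a tumour were BALB/c nu/nu males, which lack a thymus and the T cells it makes but keep other immune cells, including macrophages and B cells. At 6 weeks of age they received TK-4, a human colon cancer, in the wall of the cecum. From day 7 they were given vehicle (T-Co) or TSU68 (T-TSU) for 1 week, by mouth in divided doses that came to 400 mg/kg/day. TSU68 inhibits the receptor tyrosine kinases for VEGF, PDGF and FGF. The comparison group bore no tumour and was given vehicle (NT-Co), and its strain and age are not stated apart from those of the other mice. No operation without tumour cells is described, so effects of the tumour and of placing it cannot be told apart. If NT-Co differed in strain or age, that effect could not be told apart from them either. TSU68 given to mice without tumour is not analysed here. The labels do not say whether each array stands for 1 animal, so the p-values measure only the spread between these samples, which may be technical.

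Interferons bind receptors on the cell surface and activate JAK kinases. The signal is carried to the nucleus, where a complex that holds STAT2 and IRF9 binds interferon-stimulated response elements (ISRE). Gamma-activated sites (GAS) are another element in the promoters of interferon-responsive genes. The induced genes encode proteins that block viruses, GTPases that attack vacuoles holding parasites, and the peptide transporters and MHC molecules that show antigens to T cells and NK cells. In liver, hepatocytes, Kupffer cells and endothelial cells all respond to interferon, and class II is carried mainly by antigen-presenting cells.

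Promoter sequence was read for the members because ISRE and GAS sites are what the members of an interferon programme are known to share. RefSeq promoters (build GRCm38.p6), running from 250 bases before to 50 bases after the gene start, were found for 29 of the 37 members. The ISRE core, GAAANNGAAA on either strand, stood in 14 of the 29 (48.3%), against 3.99% of 27025 genes with a promoter. The GAS element, TTCNNNGAA on either strand, stood in 7 of the 29 (24.1%), against 9.55% of the genes. The ISRE core was found in 7 of 12 effectors, both sensors and all 3 GTPases with a promoter. It stood in 1 of 5 transcription factors, 1 of 5 class I genes and 0 of 2 class II genes. No match says only that these letters are not in the window. The 6 promoters shown are those of the members on which the group comparisons and the spread between arrays turn. Irf8 and H2-K1 have 2 windows each, and the window with the most matches was chosen for showing. Capitals mark the ISRE core in Rsad2 and Irgm1, both motifs in Igtp and the GAS element in Irf8. In Irgm1 a pair of ISRE cores overlap and read as 1 run of capitals. The Tapbp and H2-K1 windows hold neither motif and have no capitals.
Tapbp (chr17:33919228-33919527, plus strand) is the first, and the sequence follows.
Tapbp: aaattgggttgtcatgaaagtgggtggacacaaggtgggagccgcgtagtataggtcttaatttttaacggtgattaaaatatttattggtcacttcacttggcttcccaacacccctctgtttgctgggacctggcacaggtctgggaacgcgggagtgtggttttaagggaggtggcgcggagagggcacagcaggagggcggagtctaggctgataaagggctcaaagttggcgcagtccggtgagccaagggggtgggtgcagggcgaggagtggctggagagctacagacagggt
H2-K1 lies at chr17:34000284-34000583, minus strand.
H2-K1: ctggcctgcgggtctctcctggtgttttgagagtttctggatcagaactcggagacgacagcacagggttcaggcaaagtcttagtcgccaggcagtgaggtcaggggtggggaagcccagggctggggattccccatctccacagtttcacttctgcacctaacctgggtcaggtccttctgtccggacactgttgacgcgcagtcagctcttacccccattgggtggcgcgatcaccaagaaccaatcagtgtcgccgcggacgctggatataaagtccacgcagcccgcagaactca
Rsad2 lies at chr12:26456403-26456702, minus strand, with its ISRE core beginning 120 bases before the gene start.
Rsad2: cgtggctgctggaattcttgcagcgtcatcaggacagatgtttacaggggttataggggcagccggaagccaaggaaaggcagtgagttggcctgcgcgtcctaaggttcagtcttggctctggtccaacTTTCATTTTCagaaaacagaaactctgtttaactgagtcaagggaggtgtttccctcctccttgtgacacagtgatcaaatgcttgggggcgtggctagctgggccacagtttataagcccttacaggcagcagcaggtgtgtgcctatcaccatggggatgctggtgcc
Irgm1 lies at chr11:48871371-48871670, minus strand, with ISRE cores beginning 30 and 24 bases before the start.
Irgm1: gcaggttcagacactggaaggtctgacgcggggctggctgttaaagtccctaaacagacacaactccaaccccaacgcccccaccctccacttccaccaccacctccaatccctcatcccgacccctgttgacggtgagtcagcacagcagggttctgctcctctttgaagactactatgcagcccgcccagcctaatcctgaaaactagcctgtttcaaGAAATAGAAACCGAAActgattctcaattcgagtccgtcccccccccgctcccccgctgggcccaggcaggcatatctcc
Igtp lies at chr11:58199306-58199605, plus strand, with a GAS element 45 bases and an ISRE core 34 bases before the start.
Igtp: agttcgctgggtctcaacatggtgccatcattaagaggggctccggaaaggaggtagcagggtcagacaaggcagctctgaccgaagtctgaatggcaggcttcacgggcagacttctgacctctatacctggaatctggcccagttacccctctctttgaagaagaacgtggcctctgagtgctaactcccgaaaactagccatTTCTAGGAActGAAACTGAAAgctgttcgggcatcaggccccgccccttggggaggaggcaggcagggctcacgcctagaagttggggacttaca
Irf8 lies at chr8:120736108-120736407, plus strand, with GAS elements 171 and 153 bases before the start.
Irf8: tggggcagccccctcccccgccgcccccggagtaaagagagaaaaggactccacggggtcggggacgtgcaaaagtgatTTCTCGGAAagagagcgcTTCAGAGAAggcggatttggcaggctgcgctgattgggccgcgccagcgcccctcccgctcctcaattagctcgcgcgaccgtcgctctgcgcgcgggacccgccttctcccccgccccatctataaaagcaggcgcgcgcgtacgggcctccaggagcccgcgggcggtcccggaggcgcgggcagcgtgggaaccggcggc

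The deposited values are linear intensities, analysed as log2 after adding a pseudocount of 7.92, which understates the change of dim genes. Array medians ran from 107 to 119, and pairs of arrays correlated at 0.932 to 0.960 over the probe sets. All 7 hepatocyte markers on the array passed the filter, and their summed intensity was 220130 to 269455 over the 9 arrays. The 3′ to 5′ ratio of the beta-actin probe sets, a measure of RNA integrity, was 2.72 ± 0.44 (SD, n = 3) in NT-Co, above the 1.98 ± 0.11 of T-Co and the 2.02 ± 0.20 of T-TSU. Its part in the differences from NT-Co was not tested. Among the members, T-Co replicates 10 and 13 stood apart in opposite directions, so values without either array are given where they move a difference most. Fewer cells of a type and less RNA per cell cannot be told apart in whole liver.

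The first question was whether liver differs when a tumour grows in another organ, from T-Co against NT-Co. The antigen presentation genes Tapbp and H2-K1 were higher with tumour by some of their probe sets, while Rsad2, Irgm1 and Ifit1 were lower without passing the test. A gene was called where its adjusted p from limma was under 0.05 over all probe sets tested. With the brightest tested probe set standing for each gene, 0 of the 28 members tested were called, against 6.36% of all genes, and 4 of the 28 had an unadjusted p under 0.05, against 21.9% of all genes. The median log2 difference of the 28 was -0.00039, beside -0.017 over all genes, with 14 above and 14 below 0. Without T-Co replicate 10, 7 lay above and 21 below 0, and without replicate 13, 19 above and 9 below. The groups did not overlap for 2 members that were higher and 4 that were lower in T-Co, against 26.7% of all genes in either direction. Counting every probe set, 3 of 48 were called, all higher in T-Co, against 6.54% of all probe sets. These 3 belonged to Tapbp and H2-K1. The members' shares lie near or under the background.

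**Figure D1:**
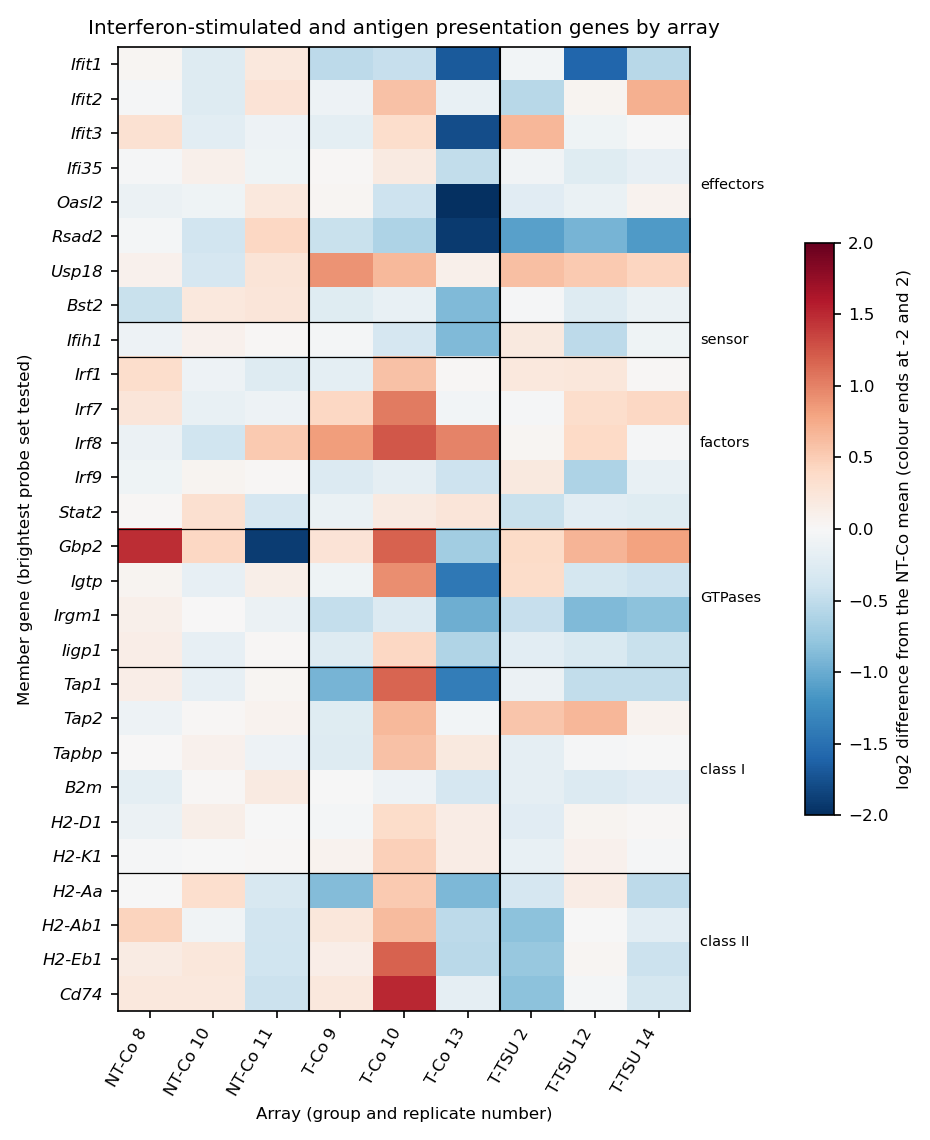
Log2 difference of each of the 28 members tested (rows, brightest probe set) from its NT-Co mean, on each of the 9 arrays (columns), with colours that end at -2 and 2. T-Co replicate 10 is red and T-Co replicate 13 blue over many rows, and the member medians of the T-TSU arrays, -0.14 to -0.059, lie between those of these arrays.

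Tapbp encodes tapasin, which holds empty class I molecules at the peptide transporter until they are loaded. Probe sets of a gene are numbered here from the brightest by mean intensity over the arrays. Probe set 2 of Tapbp read 162, 206 and 158 on the NT-Co arrays, 372, 588 and 476 on the T-Co arrays and 332, 439 and 517 on the T-TSU arrays. Every array with tumour lay above every array without. T-Co was 2.73 times as bright as NT-Co by mean intensity, and the log2 difference was 1.39 ± 0.22 (SE; 95% interval 0.91 to 1.87; limma adjusted p = 0.00369). Probe set 1 read 1787, 1904 and 1671 in NT-Co, against 1491, 2679.7 and 2047 in T-Co and 1571, 1764 and 1769 in T-TSU. Here the groups overlapped, and the test was not passed, at 0.17 ± 0.18 (adjusted p = 0.635). The probe sets of Tapbp thus disagree, probe set 1 was -0.031 without T-Co replicate 10, and the files do not tell which transcripts each one reads.

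H2-K1 is a classical class I heavy chain, the molecule that carries peptides to the cell surface. Its probe set 2 read 3995, 4462 and 4319 in NT-Co, against 5619.9, 8041 and 6864 in T-Co and 6041, 6527 and 6049 in T-TSU. Both tumour groups lay wholly above NT-Co. T-Co differed from NT-Co by 0.67 ± 0.13 on the log2 scale (adjusted p = 0.0109). Probe set 3 read 1436, 1771 and 1554 in NT-Co, against 2082, 3481 and 2894 in T-Co and 2098, 2352 and 2606 in T-TSU, again with no overlap between NT-Co and the tumour groups, and rose by 0.80 ± 0.18 in T-Co (adjusted p = 0.0200). Without 1 array, probe set 3 lost its call for T-Co replicate 10 (adjusted p = 0.0554) and NT-Co replicates 8 (0.0860) and 11 (0.0769), and probe set 2 for NT-Co replicate 8 (0.0544).

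The other 2 probe sets of H2-K1 did not pass. Probe set 1 read 5596, 5639 and 5771 in NT-Co and 5950.3, 7919 and 6290.1 in T-Co, without overlap but with a difference of only 0.23 ± 0.12 (adjusted p = 0.297). Probe set 4 differed by 0.62 ± 0.25 (adjusted p = 0.168). All 4 have the suffix that marks probes shared with other transcripts. Class I genes are near-identical copies, so the signal cannot be given to H2-K1 alone. Tapbp and H2-K1 both lie on chromosome 17. With the strain of NT-Co unstated, a strain effect on their probe sets cannot be told apart from one of the tumour.

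H2-D1, the other classical class I heavy chain on the list, had 8 tested probe sets and none was called in T-Co against NT-Co. Their differences ran from -0.81 to 0.43, with both ends at dim probe sets. The brightest read 7563, 8804 and 8159 in NT-Co, against 7924, 10542 and 9065 in T-Co and 6942, 8512 and 8275 in T-TSU, and differed by 0.16 ± 0.13. B2m, the light chain that all class I molecules share, read 22266, 25849 and 28849 in NT-Co and 25423, 23850.2 and 20178 in T-Co by its brighter probe set. Its difference was -0.15 ± 0.12, and that of its other probe set was 0.037, neither called. Of the 8 tested probe sets of H2-D1, 7 carry the same suffix for shared probes as those of H2-K1, so values of these genes cannot be fully told apart.

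Tap1 and Tap2 form the transporter that brings peptides into the endoplasmic reticulum. Tap1 read 289, 234 and 273 in NT-Co and 134, 603 and 96.0 in T-Co, where replicate 10 lay far above and the other two far below every NT-Co array. The difference was -0.39 ± 0.49 (adjusted p = 0.706), but without T-Co replicate 10 it was -1.16 (adjusted p = 0.0181) and without replicate 13 it was 0.12. Probe set 2 of Tap1, whose average lay under the filter, read 2.27, 7.22 and 13.9 in NT-Co, against 57.4, 43.7 and 32.1 in T-Co and 3.38, 2.92 and 7.50 in T-TSU. It was higher in T-Co only, near background, and was not tested. Tap2 differed by 0.12 ± 0.25.

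**Figure D2:**
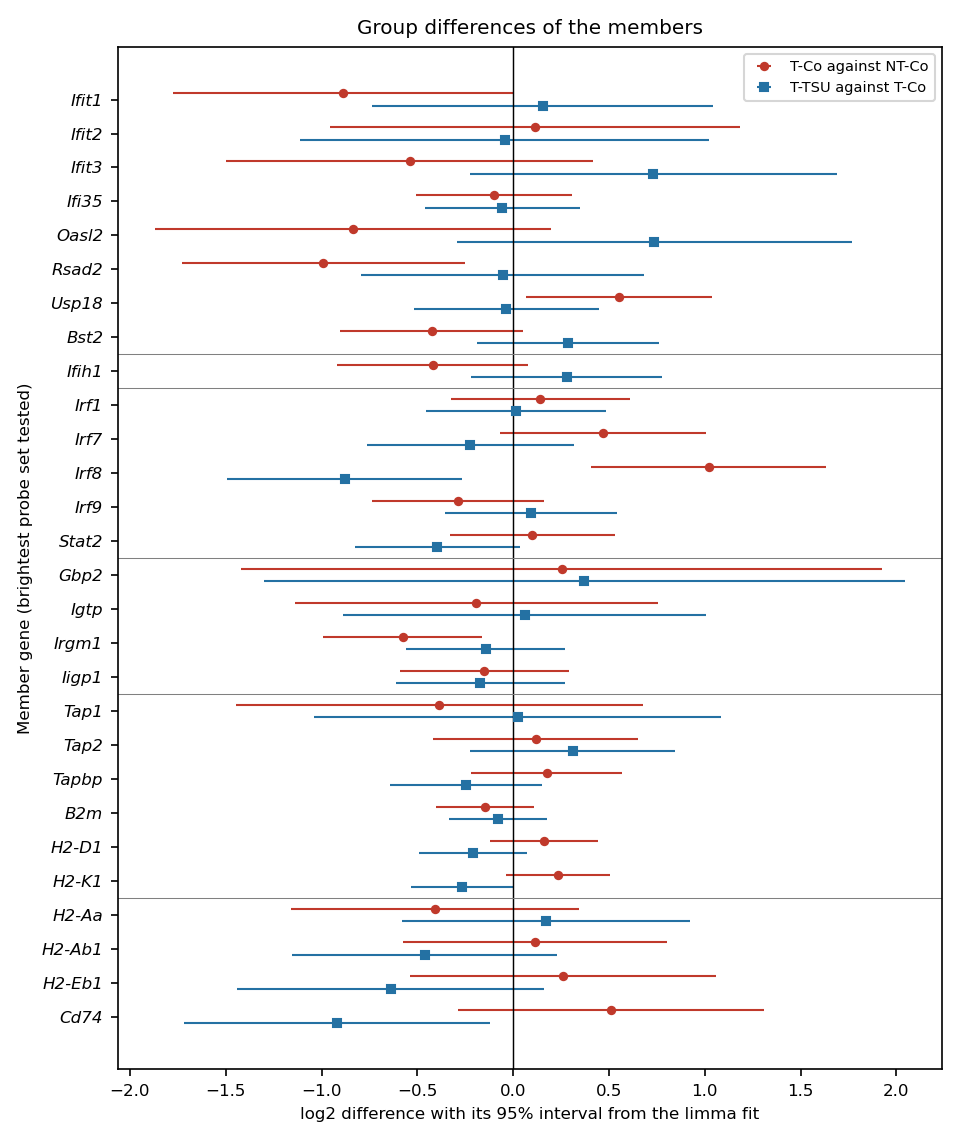
Log2 difference with its 95% interval from the limma fit for the brightest probe set of each of the 28 members tested, T-Co against NT-Co (circles) and T-TSU against T-Co (squares). Irf8 lies farthest to the right for T-Co against NT-Co at 1.02, and the intervals of 4 members exclude 0 for that comparison and those of 2 for T-TSU against T-Co.

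None of the 8 effectors tested was called. In T-Co against NT-Co 6 lay below 0, with a median of -0.48, which rests on T-Co replicate 13. Without that array 4 lay below 0 and the median was -0.055. Rsad2 encodes viperin, an enzyme that makes a chain-terminating nucleotide against viral RNA synthesis. Its probe set 1 read 372, 291 and 511 in NT-Co, against 278, 246 and 95.5 in T-Co and 175, 197 and 170.4 in T-TSU. Every array with tumour lay below every array without. The log2 difference of T-Co was -0.99 ± 0.34 (adjusted p = 0.106), and -0.53 without T-Co replicate 13. Probe set 2 read 138, 130.4 and 153 in NT-Co, against 65.4, 72.0 and 45.6 in T-Co and 55.6, 38.3 and 77.2 in T-TSU and differed by -1.13 ± 0.32 (adjusted p = 0.0576). Probe set 3 had -0.33 ± 0.36, with groups that overlapped.

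Ifit1, which binds viral RNA lacking a self mark, read 186, 151 and 212 in NT-Co, against 125, 129 and 51.2 in T-Co and 174, 55.3 and 121 in T-TSU. T-Co did not overlap with NT-Co, and the difference was -0.89 ± 0.41 (adjusted p = 0.226), or -0.49 without T-Co replicate 13. Its relative Ifit3 differed by -0.54, which became 0.080 without that array. Ifit2 differed by 0.11, which became -0.13 without T-Co replicate 10. Oasl2, of the oligoadenylate synthetase family, differed by -0.84, with T-Co replicate 13 at 15.0 against 94.9 and 67.1 on the other T-Co arrays, and by -0.19 without replicate 13. Bst2, or tetherin, which holds budding virus at the cell surface, differed by -0.43. Ifi35 differed by -0.10, which became 0.099 without replicate 13.

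Usp18 and Ifit2 were the effectors above 0 in T-Co. Usp18 removes ISG15 from proteins and blocks signalling at the type I interferon receptor. It read 293, 218 and 331 in NT-Co, against 524, 439 and 298 in T-Co and 423, 401 and 376 in T-TSU. The 3 T-TSU arrays lay above all NT-Co arrays, and 1 T-Co array did not. T-Co differed by 0.55 ± 0.22 (adjusted p = 0.169) and T-TSU by 0.52 ± 0.22 (adjusted p = 0.261). Ifih1, the sensor of long double-stranded RNA known as MDA5, read 624, 710.3 and 684 in NT-Co, against 651, 533 and 359 in T-Co and 768, 462 and 634 in T-TSU, with a difference of -0.42 ± 0.23 for T-Co (adjusted p = 0.313). Its lowest array was T-Co replicate 13, without which the difference was -0.19.

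**Figure D3:**
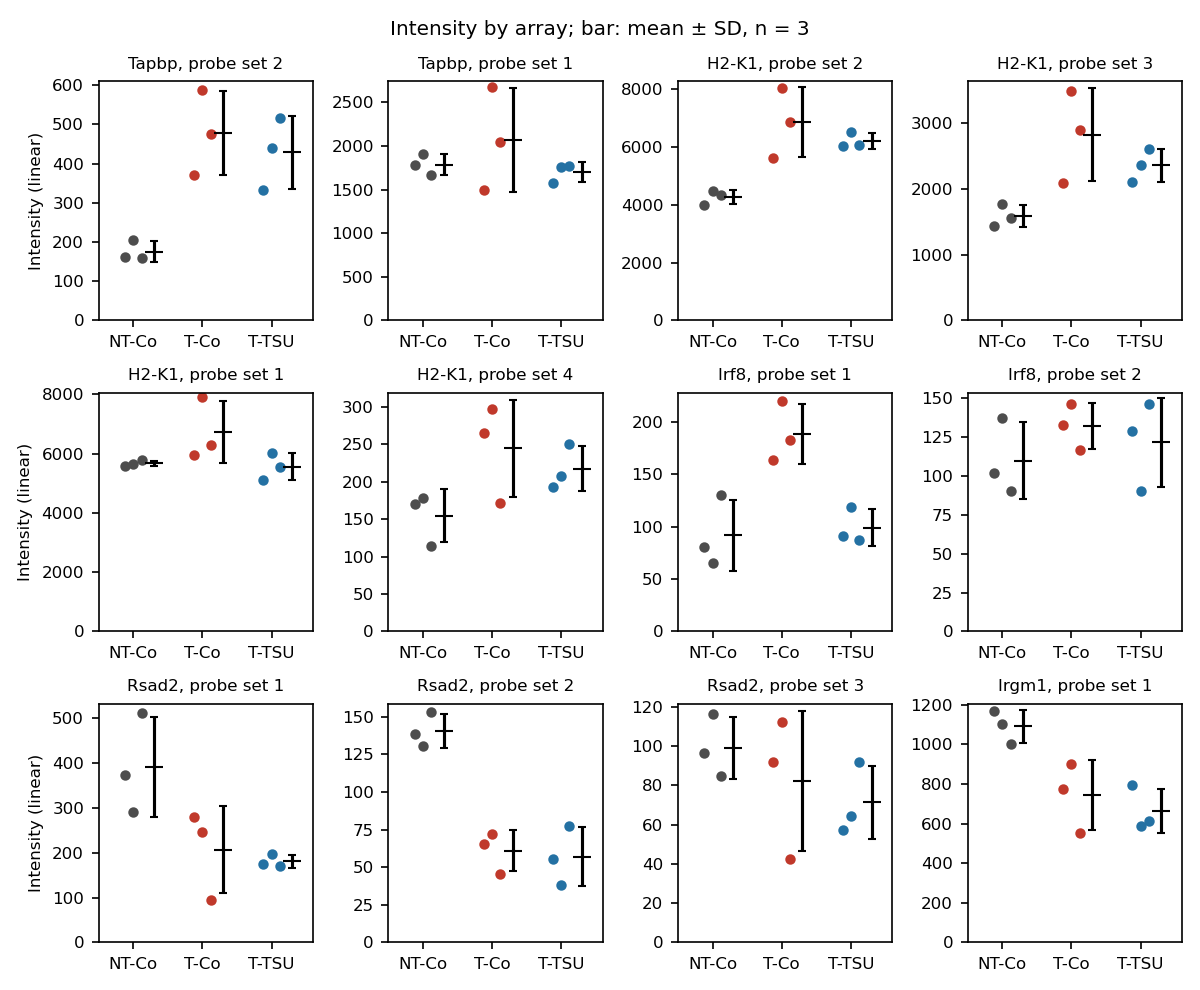
Linear intensity on each array (points) with the mean ± SD of each group (n = 3) for the probe sets of Tapbp, H2-K1, Irf8 and Rsad2 that were tested and for that of Irgm1. Probe sets are numbered from the brightest of a gene. Tapbp probe set 2 and H2-K1 probe set 2 are higher in both tumour groups, while Irf8 probe set 1 is high in T-Co alone.

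Among the GTPases, Irgm1, which governs the other members of its family and helps clear vacuoles, read 1171, 1101 and 1004 in NT-Co, against 777, 901 and 552 in T-Co and 793, 587 and 614 in T-TSU. All 6 arrays with tumour lay below the 3 without. T-Co differed by -0.58 ± 0.19 on the log2 scale (95% interval -0.99 to -0.16; adjusted p = 0.0952). Iigp1 read 10071, 8149 and 9304 in NT-Co, against 7624, 12173 and 6024 in T-Co and 7883, 7368 and 6741 in T-TSU, and its difference of -0.15 ± 0.20 changed sign without T-Co replicate 13 (0.076). Igtp, or Irgm3, differed by -0.19 ± 0.44, which became 0.43 without T-Co replicate 13. Gbp2, a guanylate-binding protein that coats pathogen vacuoles, was dim and uneven, with 48.8 ± 49.0 (SD, n = 3) in NT-Co, and differed by 0.25 ± 0.77.

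Irf8, a transcription factor of macrophages, dendritic cells and B cells, was the member nearest to the threshold by its brightest probe set. It read 80.4, 65.3 and 129.9 in NT-Co, against 163, 219.9 and 183 in T-Co and 90.8, 119 and 87.2 in T-TSU. T-Co lay wholly above both other groups, and T-TSU overlapped with NT-Co. T-Co differed from NT-Co by 1.02 ± 0.28 (95% interval 0.41 to 1.63; adjusted p = 0.0505). Its probe set 2 read 102, 138 and 90.3 in NT-Co and 133, 146 and 117 in T-Co, with overlap and a difference of 0.26 ± 0.26. Probe set 1 was called without NT-Co replicate 11 (0.0361) and had adjusted p of 0.0561 to 0.146 without any other array.

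Irf7, which drives the later wave of interferon genes, read 563, 429 and 444 in NT-Co, against 638, 990.4 and 457 in T-Co and 469, 607 and 636 in T-TSU. Its difference was 0.47 ± 0.25 (adjusted p = 0.294), and 0.18 without T-Co replicate 10. Irf1, the factor induced early by interferon gamma, differed by 0.14. The members of the ISRE-binding complex, Irf9 and Stat2, differed by -0.29 and 0.10, and Irf9 was the only one of these with no overlap between the groups. The other probe set of Stat2 differed by -0.28, so the direction of Stat2 is not settled.

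Class II genes had no call and no group that stood clear of NT-Co. Cd74 encodes the invariant chain that guards the class II groove. It read 495, 496 and 316 in NT-Co, against 495, 1222 and 377 in T-Co and 237, 415 and 331 in T-TSU, and differed by 0.51 ± 0.37 in T-Co (0.017 without replicate 10). The beta chain H2-Eb1 read 372, 391 and 249 in NT-Co, against 364, 762 and 225 in T-Co and 193, 342 and 243 in T-TSU. The alpha chain H2-Aa differed by -0.41 by the brighter and 0.69 by the other probe set, so its direction is not settled. H2-Ab1, the other beta chain, differed by 0.11, 0.37 and -0.094 by its 3 probe sets, so its direction is not settled either.

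Markers of the cells that carry class II and Irf8 were measured beside them. The 12 macrophage and Kupffer cell markers on the array, of 13 listed, all passed the filter. Their summed intensity was 10938 to 13819 in NT-Co, 13655 to 19373 in T-Co and 7904 to 12689 in T-TSU. In T-Co against NT-Co 11 of the 12 lay above 0 and 1 was called, where 6.36% of all genes were called. Of 7 B cell markers, Cd79a, Pax5 and Blk lay under the filter, and the sum was 583 to 1305 in NT-Co, 577 to 643 in T-Co and 427 to 647 in T-TSU. Of 6 dendritic cell markers, Flt3, Xcr1 and Ccr7 lay under the filter, with sums of 221 to 273, 186 to 242 and 205 to 275. All 8 endothelial markers were tested, 7 lay above 0 in T-Co against NT-Co (median 0.49) and 1 was called, Pecam1. Their sum was 1880.5 to 2526 in NT-Co, 2342 to 3754 in T-Co and 1605 to 2290.3 in T-TSU. All 7 hepatocyte markers also lay above 0, with a median of 0.13 and Cps1 called. Irf8 and the macrophage, endothelial and hepatocyte sums were highest on average in T-Co, and the dendritic cell and B cell sums were not. For B cells this rested on NT-Co replicate 11, at 1305 against 583 and 624 on replicates 8 and 10. The 4 B cell markers tested ran from -0.77 to 1.38 in T-Co against NT-Co, 2 of them above 0. The neutrophil sum was also highest in T-Co, at 764 to 2093, against 479 to 778 in NT-Co and 430 to 757 in T-TSU. The part of cell numbers in the member values was not tested.

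T-TSU was set against T-Co to ask what the drug changes in livers of tumour-bearing mice. Irf8 and the class II genes other than H2-Aa were lower on average with TSU68, and no member was called. The count was 0 of 28 genes by limma, against 0.0542% of all genes, and 0 of 48 probe sets, against 0.0505%. At an unadjusted p under 0.05 there were 5 probe sets and 2 of the 28 genes, against 11.6% of all genes. The median difference of the 28 was -0.049, beside 0.00064 over all genes. The groups did not overlap for 2 members, Irf8 and Stat2, both lower in T-TSU, against 14.7% of all genes.

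Probe set 1 of Irf8, given by array above, differed by -0.88 ± 0.28 between T-TSU and T-Co (95% interval -1.49 to -0.27; limma adjusted p = 0.315). Its probe set 2 read 133, 146 and 117 in T-Co and 129, 90.3 and 146 in T-TSU. There the groups overlapped, and the difference was -0.13 ± 0.26 (adjusted p = 0.911). Stat2 read 336, 423 and 441 in T-Co and 271, 319 and 312 in T-TSU by its brighter probe set. It differed by -0.40 ± 0.20, and its other probe set by 0.25, in the opposite direction. Cd74 differed by -0.92 ± 0.37 (adjusted p = 0.407), and by -0.43 without T-Co replicate 10. H2-Eb1 differed by -0.64 ± 0.37, and by -0.18 without that array. The 3 probe sets of H2-Ab1 differed by -0.46, -1.12 and -0.23, and those of H2-Aa by 0.17 and -0.95. All 12 macrophage and Kupffer cell markers lay below 0 in the same comparison, with a median of -0.85. By limma 0 of them were called and 9 had an unadjusted p under 0.05, against 11.6% of all genes. Of the 8 endothelial markers 7 lay below 0, with a median of -0.45. The part of these cells in the member values was not tested.

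Ifit3 and Oasl2 were on average higher with TSU68. Ifit3 read 218, 151 and 161 in NT-Co, against 152, 225 and 45.3 in T-Co and 279.9, 165 and 174 in T-TSU. The T-TSU arrays overlapped with T-Co replicates 9 and 10, and replicate 13 lay far below them. The differences were 0.73 ± 0.44 for Ifit3 and 0.74 ± 0.47 for Oasl2, and without T-Co replicate 13 they were 0.11 and 0.091. The class I probe sets called in T-Co did not differ detectably between the tumour groups. T-TSU differed from T-Co by -0.15 ± 0.22 for probe set 2 of Tapbp (95% interval -0.63 to 0.33) and -0.13 ± 0.13 for probe set 2 of H2-K1 (95% interval -0.41 to 0.16).

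T-TSU was also set against NT-Co, which shares its NT-Co arrays with the first comparison. Probe set 2 of Tapbp rose by 1.24 ± 0.22 (adjusted p = 0.00826) and probe set 2 of H2-K1 by 0.54 ± 0.13 (adjusted p = 0.0394). Without any 1 of the NT-Co or T-TSU arrays that call of H2-K1 was lost (0.0805 to 0.148), while Tapbp kept its call. The brightest probe sets lay below 0 and were not called, at -0.071 for Tapbp (adjusted p = 0.908) and -0.031 for H2-K1 (adjusted p = 0.942). Probe set 3 of H2-K1 did not pass, at 0.56 ± 0.18 (adjusted p = 0.110). Irgm1 differed by -0.72 ± 0.19 (adjusted p = 0.0583), and Rsad2 by -1.05 ± 0.34 by probe set 1 and -1.24 ± 0.32 by probe set 2 (adjusted p = 0.122 and 0.0547). T-Co arrays enter this comparison only through the error that the fit shares. Leaving out T-Co replicate 13 brought both genes under the threshold (0.0209 for Irgm1, 0.0164 and 0.0429 for Rsad2), and Irgm1 also passed without T-Co replicate 10 (0.0388) or T-TSU replicate 2 (0.0488). Iigp1 differed by -0.32 ± 0.20, with every T-TSU array below every NT-Co array. By brightest probe set 0 of 28 members were called, against 3.64% of all genes, and 3 of the 28 had an unadjusted p under 0.05, against 16.5% of all genes. By probe set 2 of 48 were called, against 3.85%. The groups did not overlap for 1 higher and 3 lower members, against 24.1% of all genes. By limma's F test of any difference among the groups 3 of 48 probe sets passed, again of Tapbp and H2-K1, against 5.7% of all probe sets.

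Members differed widely between arrays of the same group, T-Co. Replicate 10 was the highest T-Co array for 22 of the 28 members tested and replicate 13 the lowest for 21, where the same arrays were highest for 37.1% and lowest for 36.2% of all genes. Both held together for 16 of the 28, against 20.0% of all genes. The highest T-Co array was at least 2-fold above the lowest for 13 of the 28 (46.4%), against 21.3% of all genes. In NT-Co that held for 1 of the 28, the dim Gbp2, and in T-TSU for 2, against 15.5% and 17.3% of all genes. These counts describe 3 arrays and have no test.

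Igtp shows the pattern. It read 1496, 3028 and 580.2 on T-Co replicates 9, 10 and 13, a 5.22-fold gap between the last 2, while NT-Co read 1634, 1409 and 1714 and T-TSU 2042, 1235 and 1184. The gap between replicates 10 and 13 was 6.29-fold for Tap1, 4.97-fold for Ifit3, 4.46-fold for Oasl2, 3.38-fold for H2-Eb1, 3.24-fold for Cd74 and 2.02-fold for Iigp1. It was 1.16-fold for H2-D1, 1.18-fold for B2m and 1.20-fold for Irf8. Set against the NT-Co mean, the median of the 28 members was -0.089, 0.51 and -0.51 on T-Co replicates 9, 10 and 13 on the log2 scale. On the T-TSU arrays it lay between -0.14 and -0.059.

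The roles did not shift alike on these arrays. On T-Co replicate 13 the effectors had a median of -1.28, the GTPases -0.83, class II -0.53 and class I 0.052. On replicate 10 class II stood at 0.91, the GTPases at 0.67, class I at 0.53 and the effectors at 0.016. The median of all genes was 0.016 on replicate 10 and -0.014 on replicate 13. The macrophage and Kupffer cell markers had another order, since their sum was 13655, 17278 and 19373 on replicates 9, 10 and 13, and 9 of the 12 were highest on replicate 13. The 7 neutrophil markers on the array, of which Camp, Ltf and Cxcr2 lay under the filter, summed to 764, 1334 and 2093 in the same order. The 3′ to 5′ ratio of beta-actin was 1.97, 2.10 and 1.88.

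**Figure D4:**
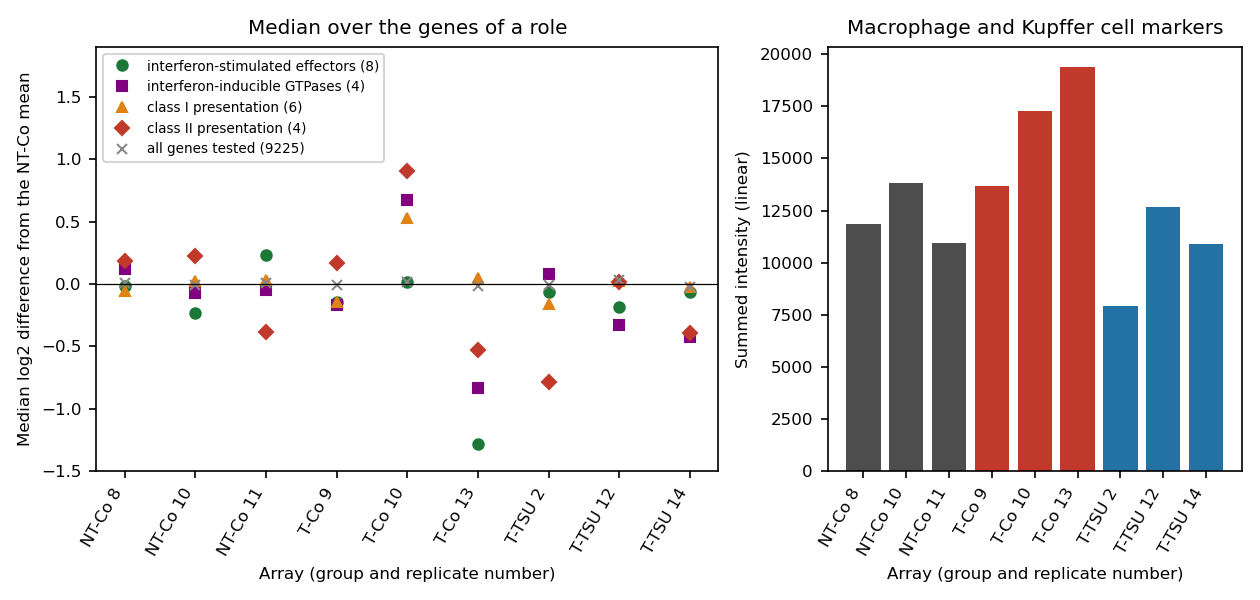
Left, the median log2 difference from the NT-Co mean over the genes of each role (number of genes in brackets) on each array, with all genes tested as crosses; right, the summed linear intensity of the 12 macrophage and Kupffer cell markers. T-Co replicate 13 has the lowest effector median, -1.28, and the highest marker sum, 19373.

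Correlation between members was described across arrays after the group means were removed. Over the 9 arrays the median correlation between pairs of members was 0.44, with 316 of 378 pairs above 0, beside 0.0045 over pairs of all genes. Without the 3 T-Co arrays the median was -0.076 over 6 arrays, with 174 of 378 pairs above 0, so the correlation over all members rests on the T-Co arrays. Class II had 0.89 over 9 arrays and 0.83 over the 6, with all 6 pairs above 0 in both. The GTPases had 0.67 and 0.40, with 5 of 6 pairs above 0 without T-Co, the effectors 0.64 and 0.10, and class I 0.64 and -0.0063. Among themselves the transcription factors had 0.036 and -0.24, with 6 of 10 pairs above 0 over the 9 arrays. With Igtp, the closest members were Ifit3 (0.96), Iigp1 (0.93), Irgm1 (0.92), Ifi35 (0.89) and Tap1 (0.89), and with Cd74 they were H2-Eb1 (0.98), H2-Aa (0.91), Irf7 (0.89) and H2-Ab1 (0.87). These are descriptions: the points are the same arrays for every pair and share their RNA and labelling.

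Other genes of the pathway were taken from lists outside the members. Of 33 further interferon-stimulated genes tested, 1 rose and 2 fell in T-Co against NT-Co, or 9.09%, near the 6.36% of all genes. Ifi47, a GTPase of the family of Igtp and Irgm1, read 1423, 1169 and 1282 in NT-Co, against 646, 798 and 446 in T-Co and 650.0, 439 and 311 in T-TSU. It fell by 1.06 on the log2 scale in T-Co (adjusted p = 0.0308) and by 1.51 in T-TSU (adjusted p = 0.00689). Cmpk2, a mitochondrial nucleotide kinase, read 142, 122 and 133 in NT-Co, against 54.4, 66.9 and 47.3 in T-Co, where it fell by 1.14 (adjusted p = 0.0406). In the RefSeq gene table it is the neighbour of Rsad2 on chromosome 12, with 0 protein-coding genes between. Both had every tumour-bearing array below every NT-Co array. Ifitm2, which hinders viral entry, rose by 0.72 in T-Co (adjusted p = 0.0321), from 6562 ± 476 to 11188 ± 3638 (SD, n = 3).

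In T-TSU against NT-Co 2 of the 33 fell (6.06%, near the 3.64% of all genes), Ifi47 and the galectin-binding glycoprotein Lgals3bp (fell by 0.48, adjusted p = 0.0488). Of 21 further antigen processing and MHC genes, 0 were called in T-Co against NT-Co and 1 fell in T-TSU (4.76%). This was Calr, the calreticulin that assists class I folding, which read 16412, 18025 and 19088 in NT-Co, against 15284, 13440.5 and 15220.3 in T-Co and 11782, 12228 and 11727 in T-TSU and fell by 0.58 (adjusted p = 0.00672). In T-TSU against T-Co 0 genes of these lists were called by limma. There 2 of the 33 and 3 of the 21 had an unadjusted p under 0.05, against 11.6% of all genes. The call of Ifi47 in T-Co was lost without T-Co replicate 9 (adjusted p = 0.0560) or 13 (0.0920) and without each NT-Co array (0.0582 to 0.113). That of Cmpk2 was lost without T-Co replicate 9 (0.0767) or 13 (0.108) and without each NT-Co array (0.0827 to 0.137). Ifitm2 lost its call without each NT-Co array (0.0743 to 0.0995), and its difference was 0.47 without T-Co replicate 13. Lgals3bp lost its call without T-Co replicate 9 (0.0570), each NT-Co array or each T-TSU array (0.0943 to 0.182), and Calr kept its call without any 1 array. Within T-Co, replicate 10 was highest for 20 of the 33 further interferon-stimulated genes and replicate 13 lowest for 20, against 37.1% and 36.2% of all genes. For the 21 further antigen processing and MHC genes these counts were 10 and 10. They were 5 and 4 for 11 sensing and relay genes, and 4 and 3 for 11 ligand, receptor and JAK-STAT genes. For 7 negative regulators they were 3 and 2.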

How the data were processed

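RNA from 9 liver samples was labelled from 5 µg and hybridised to mouse expression arrays, per the labels' protocols. The authors deposited linear intensity values, 1 per probe set and array, already scaled, since each array had a mean of 500.3 after trimming 2% at each end. The sources used here do not name the software that summarised the probe sets. Groups came from the sample titles. Here, log2(intensity + 7.92) was fitted with limma 3.58.1 in R 4.3.3, using a group-means model over all 9 arrays (6 residual degrees of freedom) and empirical Bayes moderation with an intensity trend. Probe sets whose mean log2 value lay under the 30th percentile (intensity 36.2) were left out, as were 64 control probe sets, and 4 probe sets that name a member among several genes were not used. Tests were two-sided, adjusted by Benjamini-Hochberg over 15838 probe sets, with a threshold of 0.05.

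The number of arrays limits the precision. On data simulated for T-Co against NT-Co over the 15838 probe sets, 41.9% of 2-fold and 84.5% of 4-fold changes were recovered. Members and lists were chosen with earlier results of these data known. All members may be named. Those given by array in every group were called by any probe set or had the 2 smallest p of their role in T-Co against NT-Co or T-TSU against T-Co; a few more were added after their values were seen. Genes outside the members were named from the lists where called, or among the 4 smallest p of a list. Alternatives changed the pseudocount, filter, normalization, prior, samples in the fit and probe set rule, and left out each array.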

Additional observations from a re-analysis of the deposited data

How the results depend on the processing

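The 3 arrays per group limit what can be called, and the labels name no batch, so none was tested. No paired analysis was possible because the groups share fewer than 2 replicate numbers. In T-TSU against T-Co, the count of members called was 0 under all 19 alternatives. The median member difference ran from -0.20 without T-Co replicate 10 to 0.14 without T-Co replicate 13 for T-Co against NT-Co. For T-TSU against T-Co it ran from -0.25 to 0.12, so its sign was not settled in either. Under every alternative it moved by less than the within-group spread of the per-array medians (SD 0.30 on the log2 scale). That spread comes mainly from T-Co replicates 10 and 13, at 0.51 and -0.51, so it cannot show that the median was stable. The cause of the changed calls below was not tested.

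By brightest probe set, the count of 0 in T-Co against NT-Co became 1 (Irf8) with a pseudocount of 32 or a filter at the 50th percentile, and 2 (H2-K1 and Tapbp) with the mean of all probe sets of a gene. It was 0 to 1 with 1 array left out (Irf8 without NT-Co replicate 11, Tap1 without T-Co replicate 10). In T-TSU against NT-Co the count of 0 became 1 (Irgm1) with the 50th percentile filter and 2 (Irgm1 and Rsad2) with only the 2 groups in the fit, and was 0 to 2 with 1 array left out. By the F test 0 became 0 to 2 with 1 array left out, with Irgm1 and Tap1 passing without T-Co replicate 10, and Irgm1 and Rsad2 without T-Co replicate 13.

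By any probe set, the 2 genes called in T-Co against NT-Co became 4 with a pseudocount of 32 (Irf8 and Rsad2 joined) and 1 to 3 with 1 array left out, the 1 being Tapbp without NT-Co replicate 8. In T-TSU against NT-Co, 2 became 1 (Tapbp) with no filter or with median centring, 4 with only the 2 groups compared, and 1 to 4 with 1 array left out. By the F test, 2 became 1 if no intensity trend was used, and 1 to 4 when an array was left out. Probe set 2 of Tapbp, numbered from the brightest, passed in 18 of 18 alternatives for each tumour group, with adjusted p up to 0.0214 in T-Co and 0.0488 in T-TSU. Probe set 2 of H2-K1 passed in 16 of 18 for T-Co (up to 0.0647) and in 9 of 18 for T-TSU (up to 0.148), and probe set 3 in 14 of 18 for T-Co (up to 0.0860).

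Signs turned for members that were not called. With 1 array left out, T-TSU against T-Co ran from -0.34 to 0.0088 for Irgm1 and from -0.40 to 0.11 for Iigp1, the upper values without T-Co replicate 10. T-Co against NT-Co ran from -0.43 to 0.076 for Iigp1 and from -1.16 to 0.12 for Tap1, the upper values without T-Co replicate 13 and the lower without replicate 10, where Tap1 was called. In the same way Ifit3 ran from -0.98 to 0.080, Ifi35 from -0.24 to 0.099 and Igtp from -0.76 to 0.43. Ifit2 ran from -0.13 without T-Co replicate 10 to 0.25 without NT-Co replicate 11, and was -0.013 without NT-Co replicate 10. Over the 28 members, the sign of T-Co against NT-Co changed for 7 without T-Co replicate 10 and 5 without replicate 13, and that of T-TSU against T-Co for 7 and 6. The values for the effectors and Igtp were added after the data were seen. Of the genes outside the members, Ifi47 in T-TSU passed throughout (18 of 18), Calr in 17, Ifitm2 in 13, Ifi47 in T-Co in 12 and Lgals3bp in 10 of 18, and Cmpk2 in 11 of 17.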

Other observations

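Genes that carry the interferon signal to the nucleus, and those that stop it, were measured beside the members. Of 11 ligand, receptor and JAK-STAT genes tested, 0 were called by limma in any comparison. In T-Co against NT-Co 2 of the 11 had an unadjusted p under 0.05, against 21.9% of all genes. These were receptor chains with higher values in T-Co. Ifngr1, the binding chain of the interferon gamma receptor, read 155, 175 and 134 in NT-Co, against 257, 243 and 343 in T-Co and 172, 315 and 215 in T-TSU, with T-Co 0.82 ± 0.24 above NT-Co on the log2 scale (adjusted p = 0.0638). Ifnar2, a chain of the type I interferon receptor, read 1823, 2196 and 1521 in NT-Co, against 2321, 2624 and 2991 in T-Co and 2124, 1929.9 and 2599 in T-TSU, and T-Co differed by 0.52 ± 0.17 (adjusted p = 0.0817). For both, every T-Co array lay above every NT-Co array, where 26.7% of all genes had groups without overlap in either direction.

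Of 7 negative regulators tested, 0 were called by limma and 1 had an unadjusted p under 0.05 in each comparison. The share of all genes under that p was 21.9% in T-Co against NT-Co, 11.6% in T-TSU against T-Co and 16.5% in T-TSU against NT-Co. Groups did not overlap for 26.7%, 14.7% and 24.1% of all genes in these comparisons. Ptpn2, a phosphatase that removes phosphate from JAK1, read 605, 637 and 583 in NT-Co, against 924, 863 and 933 in T-Co and 587, 469 and 711 in T-TSU. T-Co lay wholly above both other groups, with 0.57 ± 0.16 against NT-Co (adjusted p = 0.0568), and T-TSU differed from T-Co by -0.63 ± 0.16 (adjusted p = 0.201). Of 11 sensing and relay genes tested, 0 were called by limma, with 3 at an unadjusted p under 0.05 in T-Co against NT-Co and 1 in each of the others. Trim25, the ubiquitin ligase that acts on RIG-I, read 1569, 1519.6 and 1741 in NT-Co, against 1348, 893 and 1089.6 in T-Co and 1257, 1259 and 1014 in T-TSU, with both tumour groups wholly below NT-Co and a difference of -0.55 ± 0.16 for T-Co (adjusted p = 0.0677).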
